A study of Mus musculus with 15 samples.

Results

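The subject is the effect of Bcl2 overexpression in pro-B cells labelled Bcl11a-deficient. It was read from 6 of the 15 arrays of the series, chosen by their titles alone: 3 arrays of Bcl2-rescued Bcl11a-deficient cells (titles Bcl2+OHT) and 3 arrays of Bcl11a-deficient cells without added Bcl2 (titles EAAE+OHT). Both groups carry OHT in their titles, so OHT and the labelled deficiency are common to them. A further 6 arrays, of Bcl2-overexpressing control cells (Bcl2-OHT) and control cells (EAAE-OHT), were set beside them to ask whether a Bcl2 effect differs between the states. The labels call these controls wild type. All 4 groups are cells of mixed C57BL/6 and 129S5 mice, 6 to 8 weeks old, grown for 10 days from bone marrow in medium with 50 ng/ml each of SCF, IL-7 and Flt3L. The 3 DN3 arrays, of Bcl11bCKO/CKO lymphocytes, were not used here. Not given in the sources used here are the construct or promoter that supplies Bcl2, the meaning of EAAE, the way OHT was used, and whether replicate arrays came from separate animals. P-values therefore measure the spread between these cultures only.

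Bcl2 is the founding member of a family that decides whether mitochondria release cytochrome c. It holds in check the pore formers Bax and Bak1, and BH3-only proteins such as Bcl2l11 (Bim), Bbc3 (Puma) and Pmaip1 (Noxa) neutralise it. Bcl2 is also known to slow entry into the cell cycle in lymphocytes. Bcl11a is a zinc finger transcription factor needed for the first steps of B cell development, and its loss in B cell precursors has been tied to p53-dependent death. Pro-B cells rearrange their immunoglobulin heavy chain genes and depend on IL-7 for survival and division.

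Levels are given as normalised log2 intensities, in the order of replicates 1, 2 and 3. Log2 fold changes are Bcl2-rescued minus labelled deficient with their standard error, n = 3 arrays per group, and a gene passed with a limma adjusted p (Benjamini-Hochberg) under 0.05. The 6 arrays had mean raw signals of 504.7 to 768.6 and 15276 to 16422 probes above background. Arrays correlated at 0.991 to 0.992 within the Bcl2-rescued group, at 0.984 to 0.985 within the labelled deficient group and at 0.896 to 0.919 between the groups. Control replicate 3 was the dimmest pro-B array, with a mean raw signal of 186.9. It enters through the joint normalisation and probe filter, the shared estimate of the spread and the control state. Results given without control replicate 3 left it out of the fit only and kept the values normalised with it. The 8 measured pro-B markers, among them Igll1, Vpreb1, Rag1, Il7r and Cd79b, were above background on all 6 arrays. Their summed intensity was 123000 to 128700 on Bcl2-rescued arrays and 94800 to 104600 on labelled deficient arrays.

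The targeted gene did not follow its label in cells without Bcl2. By its brightest probe (ILMN_2712044), Bcl11a had 9.87, 10.26 and 10.30 on Bcl2-rescued arrays and 11.34, 11.65 and 11.48 on labelled deficient arrays. It stood at 10.84, 11.02 and 10.95 on Bcl2 control arrays and at 9.57, 9.30 and 10.0 on control arrays. By this probe the labelled deficient arrays without Bcl2 were thus the highest of the 4 groups, and the log2 fold change with Bcl2 was -1.35 ± 0.20 (adjusted p = 0.000264). A second probe (ILMN_1257463) gave 0.60 ± 0.44 (limma adjusted p over all probes = 0.323), and the last probe stayed dim on the 12 arrays. Labelled deficient minus control arrays, both without Bcl2, gave 1.87 ± 0.205 for the first probe (limma adjusted p over all probes = 0.0072). With Bcl2 in both, the same probe was lower in labelled deficient cells, at -0.79 ± 0.205 (limma adjusted p over all probes = 0.0172). The second probe gave -0.25 ± 0.44 without Bcl2 and -0.92 ± 0.44 with it, and neither passed. Which stretch of Bcl11a was deleted is not given in the labels. Neither a place of the probes outside that stretch nor an exchange of labels between these groups was tested, and each comparison below rests on the labels as deposited. The state is therefore called labelled deficient throughout.

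The overexpressed gene was not seen as a rise either. The brightest of 9 Bcl2 probes had 7.88, 7.68 and 7.64 on Bcl2-rescued arrays and 8.96, 8.64 and 8.06 on labelled deficient arrays, a log2 fold change of -0.82 ± 0.40 that did not pass (adjusted p = 0.127). It passed as lower with a replicate block (limma adjusted p = 0.0204) and without control replicate 3 (limma adjusted p = 0.0403). With slide as a block it did not pass (limma adjusted p = 0.146). Within slide 1 it gave -0.92 and within slide 2 -0.39. The other 3 Bcl2 probes that were tested gave 0.08, -0.05 and -0.86 and did not pass. Whether these probes can read the added Bcl2 is unknown. Bcl11b, a T lineage paralogue of Bcl11a, was below background on all 12 arrays by each of its 4 probes.

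Expression differed widely between the groups. Of 9687 genes tested, 3826 passed (39.5%), 2065 of them higher (21.3%) and 1761 lower (18.2%) on Bcl2-rescued arrays. A change of at least 2-fold was seen for 2124 of these genes, 1091 higher and 1033 lower. At least 4-fold changes leaned the other way, with 200 genes higher and 320 lower. The first principal component held 55% of the variance and set the 3 Bcl2-rescued arrays, at 64.2 to 67.4, apart from the other 9. Bcl2 control arrays lay between, at -1.3 to 6.7, and arrays without Bcl2 lay at -40.9 to -25.2. All 3 arrays of a group lay on 1 side of all 3 of the other for 6045 genes (62.4%), and the median log2 fold change of all genes was 0.05. Both groups had arrays on both slides. Slide 1, with 1 Bcl2-rescued and 2 labelled deficient arrays, gave 1476 genes higher and 1435 lower on its own, and slide 2, with 2 and 1, gave 1880 higher and 1631 lower.

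**Figure D1:**
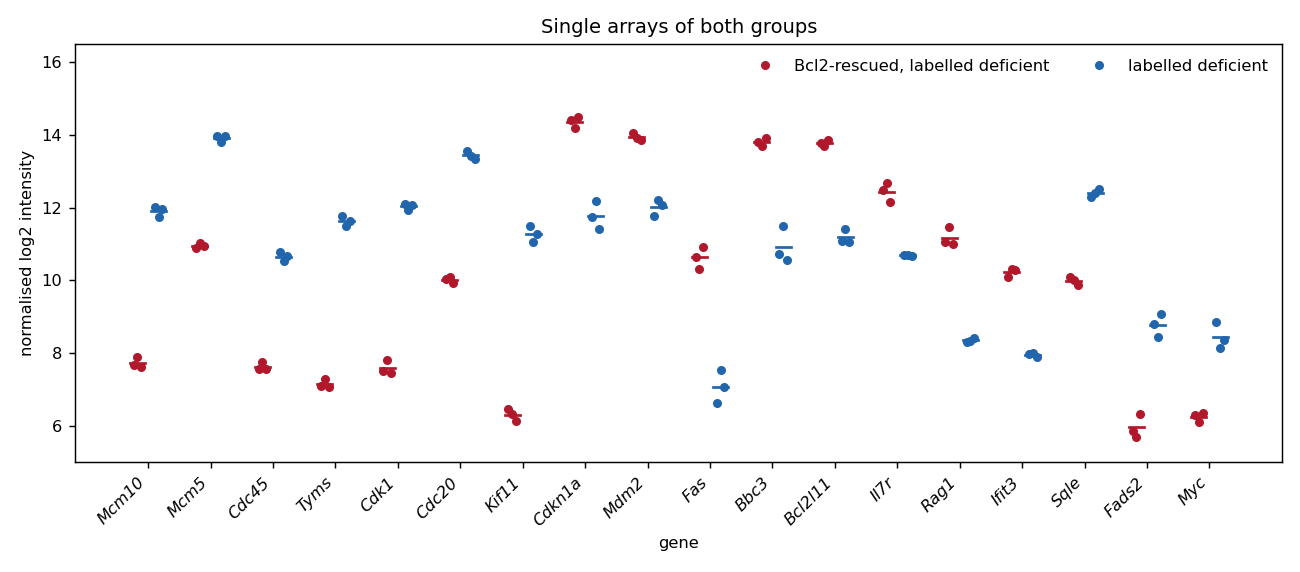
Normalised log2 intensity (vertical axis) of 18 genes on each array of the Bcl2-rescued labelled deficient group (left, red) and the labelled deficient group (right, blue), with bars at the group means. The 7 genes of DNA synthesis and division at the left, Mcm10 to Kif11, and Sqle, Fads2 and Myc at the right were lower on every Bcl2-rescued array, and Cdkn1a to Ifit3 were higher on every Bcl2-rescued array.

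A broad change was seen in cell division genes. DNA replication, nucleotide synthesis, mitosis and DNA repair genes were lower together on Bcl2-rescued arrays: of 121 measured genes in these 4 lists, 112 fell (92.6%), 76 of them at least 4-fold, against 17.2% of all other genes. No measured member of the 4 lists rose. The median log2 fold change was -1.93 over 35 replication genes, -2.0 over 17 nucleotide synthesis genes, -2.34 over 16 repair genes and -3.03 over 53 mitosis genes. It was -3.07 for mitosis within slide 1 and -3.22 within slide 2. In bulk RNA, fewer dividing cells and less RNA per cell cannot be told apart.

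The control regions of the genes at the centre of this fall are shown first, because cell cycle genes are known to be switched by short promoter elements. CHR elements (TTTGAA or TTTAAA) and CCAAT boxes (CCAAT) are known to bind the DREAM and MuvB complexes and NF-Y at mitotic genes, and E2F factors bind near the start of replication genes. The 250 bases before the start of 4 genes are printed on the gene's strand, 5′ to 3′, from RefSeq on build GRCm38.p6. Capitals mark CHR and CCAAT matches on either strand, with none overlapping another.
Plk1, chr7:122159185-122159434, plus strand: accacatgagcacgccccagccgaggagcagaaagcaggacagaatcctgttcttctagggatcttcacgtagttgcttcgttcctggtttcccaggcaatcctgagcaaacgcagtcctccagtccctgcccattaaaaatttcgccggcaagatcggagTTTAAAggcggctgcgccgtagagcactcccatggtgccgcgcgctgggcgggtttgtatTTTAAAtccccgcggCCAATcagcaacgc
Cdc20, chr4:118437344-118437593, minus strand: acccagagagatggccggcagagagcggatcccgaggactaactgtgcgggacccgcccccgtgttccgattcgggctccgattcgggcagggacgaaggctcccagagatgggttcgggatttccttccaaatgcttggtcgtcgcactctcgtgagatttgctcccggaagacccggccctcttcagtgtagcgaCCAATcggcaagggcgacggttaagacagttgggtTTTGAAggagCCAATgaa
Kif4, chrX:100625815-100626064, plus strand: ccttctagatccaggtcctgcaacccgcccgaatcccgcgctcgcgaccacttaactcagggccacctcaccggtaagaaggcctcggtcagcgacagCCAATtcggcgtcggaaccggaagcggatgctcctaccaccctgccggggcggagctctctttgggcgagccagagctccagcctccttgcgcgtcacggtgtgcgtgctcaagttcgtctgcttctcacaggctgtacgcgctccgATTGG
Mcm10, chr2:5012792-5013041, minus strand: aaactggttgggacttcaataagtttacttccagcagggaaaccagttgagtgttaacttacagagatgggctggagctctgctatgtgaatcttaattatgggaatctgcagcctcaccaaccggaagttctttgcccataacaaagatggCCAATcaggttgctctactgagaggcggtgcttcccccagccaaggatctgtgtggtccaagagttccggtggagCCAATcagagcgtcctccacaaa

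Plk1 held 2 CHR matches and 1 CCAAT match, Cdc20 held 1 CHR and 2 CCAAT matches, and Kif4 and Mcm10 held 2 CCAAT matches each. No match to these letters lay in the same window of Anln or Chaf1b, which also fell. A CHR match was present before 20 of 46 mitosis genes with a RefSeq promoter (43.5%), against 25.5% of all 27025 promoters. CCAAT matches stood before 65.2% of mitosis genes and 57.1% of 28 replication genes, against 34.5% of all promoters. An E2F site (TTTCCCGC, TTTGGCGC, TTTCGCGC or TTTGCCGC, both strands) was found for 21.4% of replication genes, 1.91% of all promoters and 3.59% of 7891 measured genes with a promoter. Among those measured genes the share was 17.8% for CHR and 37% for CCAAT matches. These shares describe letters in a window and were not tested.

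Replication origin and helicase genes all fell, 17 of 17 measured, with a median of -2.19. Mcm10, which helps to activate the replicative helicase and whose promoter is shown above, had 7.66, 7.90 and 7.62 on Bcl2-rescued arrays and 12.03, 11.74 and 11.96 on labelled deficient arrays, a log2 fold change of -4.18 ± 0.18 (adjusted p = 2.93e-08). Mcm5, a ring subunit of that helicase, had 10.90, 11.02 and 10.94 on Bcl2-rescued arrays and 13.98, 13.81 and 13.96 on labelled deficient arrays (-2.96 ± 0.14, adjusted p = 6.7e-08). For both genes every Bcl2-rescued array was below every labelled deficient array. Cdc45 (-3.03 ± 0.16) and Gins1 (-3.38 ± 0.19), which join the MCM ring in the active helicase, fell too. Among 18 polymerase and fork genes, 16 fell, led by Pclaf, a PCNA-binding factor, with 7.23, 6.83 and 7.38 on Bcl2-rescued arrays and 12.35, 12.07 and 11.98 on labelled deficient arrays (-4.99 ± 0.29, adjusted p = 2.36e-07). Lig1, which joins Okazaki fragments (-3.46 ± 0.22), and Chaf1b, which assembles chromatin behind the fork (-3.01 ± 0.15), fell as well.

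Genes that supply deoxynucleotides fell in 6 of 7 cases. Tyms, the thymidylate synthase, had 7.11, 7.30 and 7.07 on Bcl2-rescued arrays and 11.76, 11.50 and 11.64 on labelled deficient arrays (-4.47 ± 0.23, adjusted p = 9.81e-08). Its other 3 probes gave -0.87, -0.91 and -3.46, of which the first did not pass (adjusted p = 0.0741). The thymidine kinase Tk1 (-4.29 ± 0.25) and the ribonucleotide reductase subunit Rrm2 (-3.08 ± 0.20) fell as well. All 10 measured genes of one-carbon and base synthesis fell, among them Shmt1 (-2.98 ± 0.21) and Ctps (-1.99 ± 0.19). Repair genes fell in 13 of 16 cases, with Clspn, a checkpoint mediator at forks, at -4.31 ± 0.19 and Fancd2 of the Fanconi pathway at -3.82 ± 0.16. In the chromatin list 8 of 11 genes fell, among them the histone chaperone Asf1b (-3.40 ± 0.33) and the variant histone gene H2ax (-3.08 ± 0.25).

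Mitosis genes fell in 50 of 53 cases, and the other 3 did not pass. Cdk1, the kinase that starts mitosis, had 7.52, 7.81 and 7.45 on Bcl2-rescued arrays against 12.09, 11.94 and 12.07 on labelled deficient arrays (-4.44 ± 0.32, adjusted p = 1.33e-06). Its second probe gave 0.46 ± 0.18 and did not pass (limma adjusted p = 0.0714). Aurka, a spindle pole kinase, had 8.27, 8.26 and 8.15 on Bcl2-rescued arrays and 11.84, 11.69 and 11.94 on labelled deficient arrays (-3.60 ± 0.15, adjusted p = 2.65e-08). By these probes neither gene had an array near the range of the other group. Among 14 kinesin and spindle genes all fell, with Kif11, the motor that pushes spindle poles apart, at 6.45, 6.32 and 6.13 on Bcl2-rescued arrays and 11.48, 11.05 and 11.27 on labelled deficient arrays (-4.97 ± 0.26, 31.3-fold lower). Kif4 (-4.46 ± 0.15) and Kif2c (-4.39 ± 0.17), which act on chromosome arms and kinetochores, were close to it. The anaphase activator Cdc20 had 10.05, 10.08 and 9.93 on Bcl2-rescued arrays and 13.55, 13.42 and 13.34 on labelled deficient arrays (-3.42 ± 0.14). Separase (Espl1, -4.11 ± 0.19), the spindle checkpoint kinase Bub1b (-4.64 ± 0.40) and the cohesin protector Sgo1 (-4.74 ± 0.24) fell in the same way. Top2a, which untangles chromosomes, gave -4.27 ± 0.31, and anillin (Anln), a cytokinesis scaffold, gave -3.87 ± 0.20 by its brightest probe and 0.22 ± 0.49 by a dimmer one.

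Plk1, a mitotic kinase, was below background with Bcl2 in both states. It had 4.82, 5.35 and 5.4 on Bcl2-rescued arrays, all below background, and 11.82, 12.42 and 11.85 on labelled deficient arrays, at least 80.1-fold lower with Bcl2 (adjusted p = 1.67e-08). It was below background too on Bcl2 control arrays, at 5.13, 5.08 and 5.25, and high on control arrays, at 12.05, 12.67 and 12.67. With Plk1 at background on all 6 arrays with Bcl2, the size of its fall has only a bound and cannot be compared between the states. Plk1 was 1 of 21 genes above background on all 6 arrays without Bcl2 and on none of the 6 with it, Cops8 among them. The mitosis median in control cells was only -0.67. No second Plk1 probe was measured, and whether this probe reads alike in cells with and without Bcl2 was not tested.

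G1 control genes moved in parts, with 18 of 29 lower, 2 higher and 9 not passing, against 18.2% of all genes lower and 21.3% higher. Cyclins E fell, Ccne2 with -2.95 ± 0.16, and Ccne1 was below background on all 3 Bcl2-rescued arrays (at least 4.8-fold lower). Cdk4, the partner of D cyclins, had 10.53, 10.54 and 10.49 on Bcl2-rescued arrays and 12.65, 12.56 and 12.49 on labelled deficient arrays (-2.05 ± 0.33). Of the E2F, RB and MuvB group 8 of 13 fell and none rose, with E2f1 at -1.73 ± 0.20, Mybl2 at -2.14 ± 0.22 and Foxm1, the activator of mitotic genes, at -2.90 ± 0.15. The inhibitors split. Cdkn1a (p21) had 14.40, 14.19 and 14.50 on Bcl2-rescued arrays and 11.74, 12.18 and 11.43 on labelled deficient arrays (2.58 ± 0.27, adjusted p = 2.29e-05). Cdkn2b (p15) had 10.10, 10.17 and 10.66 on Bcl2-rescued arrays and 6.18, 6.51 and 6.46 on labelled deficient arrays (3.93 ± 0.28, 15.2-fold higher, adjusted p = 1.36e-06). Both rose on every Bcl2-rescued array, while 4 of the 8 inhibitors fell. Cdkn3, a phosphatase counted with them, fell furthest of the genes ranked, to 6.37, 7.16 and 6.65 on Bcl2-rescued arrays against 12.08, 12.07 and 12.09 on labelled deficient arrays (-5.35 ± 0.20, 40.8-fold lower).

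**Figure D2:**
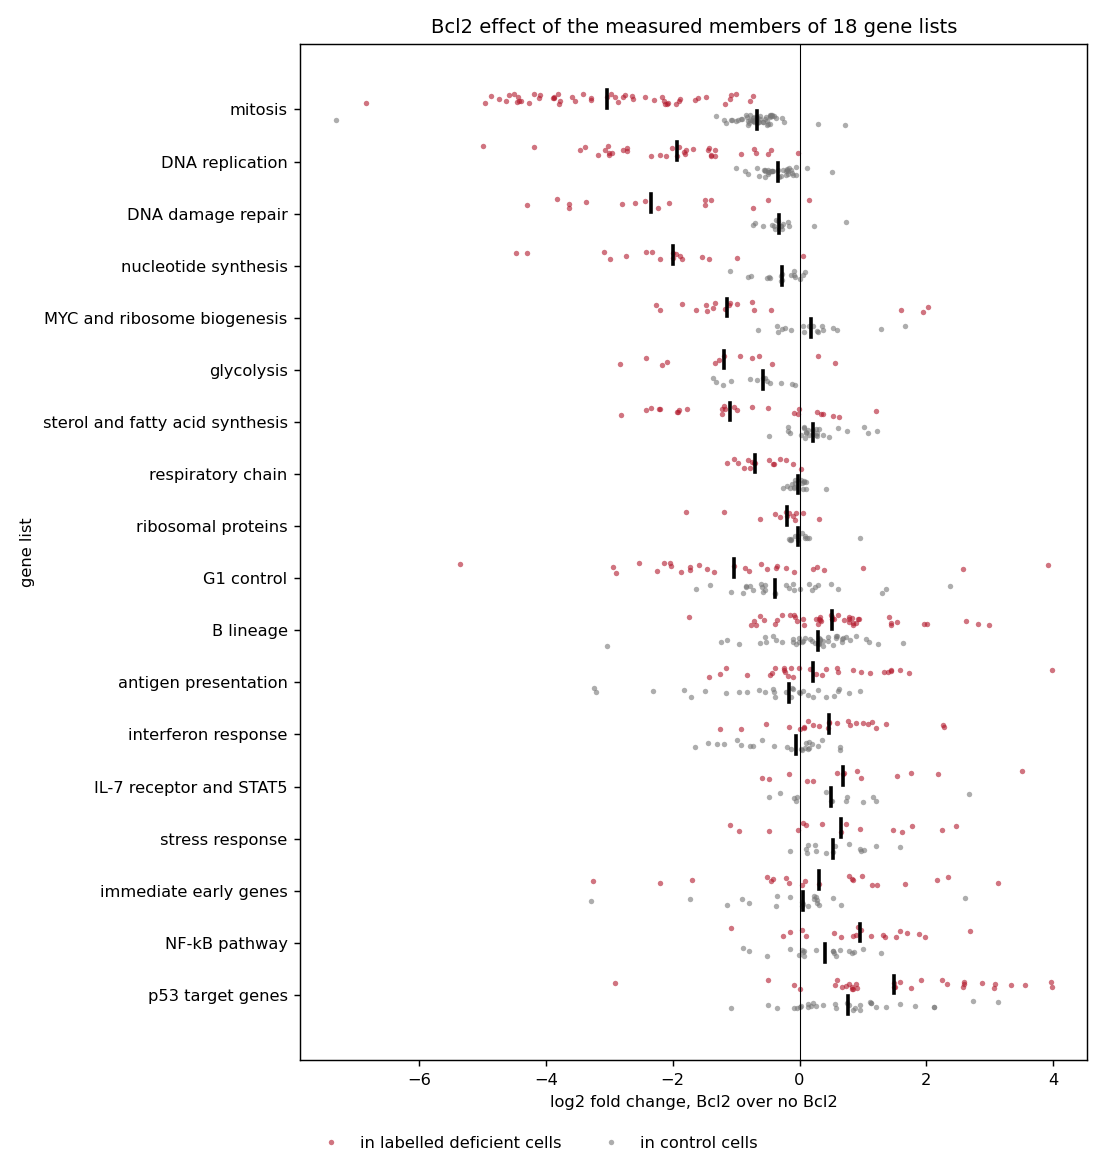
Log2 fold change with Bcl2 (horizontal axis) of each measured member of 18 gene lists, in labelled deficient cells (upper row of each list, red) and in control cells (lower row, grey), with a black bar at each median. The mitosis median was -3.03 in labelled deficient cells and -0.67 in control cells, and the p53 target median was 1.5 in labelled deficient cells and 0.77 in control cells.

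Targets of p53 rose together. Of 37 fixed genes 32 were measured, and 25 rose, 2 fell and 5 did not pass, against 21.3% of all genes higher and 18.2% lower, with a median of 1.5 (1.51 within slide 1 and 1.59 within slide 2). Among arrest and feedback genes 9 of 11 rose. Mdm2, which targets p53 for destruction, had 14.05, 13.91 and 13.86 on Bcl2-rescued arrays and 11.77, 12.22 and 12.07 on labelled deficient arrays (1.92 ± 0.20, adjusted p = 2.56e-05). Zmat3, an RNA-binding target, had 12.41, 12.39 and 12.28 on Bcl2-rescued arrays and 9.18, 9.72 and 8.93 on labelled deficient arrays (3.08 ± 0.21, adjusted p = 8.94e-07). The lowest Bcl2-rescued array was above the highest labelled deficient array for both. The death receptor Fas had 10.65, 10.32 and 10.93 on Bcl2-rescued arrays and 6.63, 7.55 and 7.07 on labelled deficient arrays (3.55 ± 0.29, 11.7-fold higher), and 7 of 9 measured death genes rose. Ephx1, a detoxifying enzyme (3.07 ± 0.29), and Ddit4l, an inhibitor of mTOR signalling (3.97 ± 0.34), rose in the remaining group. The members that fell were Ckap2 (-2.91), a spindle protein, and Ddb2 (-0.49), a DNA damage sensor.

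The BCL2 family changed in each of its groups, with 6 of 14 measured members higher and 2 lower, against 21.3% and 18.2% of all genes. Bcl2l11 (Bim), which binds Bcl2 directly, had 13.78, 13.71 and 13.87 on Bcl2-rescued arrays and 11.09, 11.41 and 11.06 on labelled deficient arrays (2.60 ± 0.21, adjusted p = 3.61e-06). Bbc3 (Puma) had 13.80, 13.70 and 13.92 on Bcl2-rescued arrays and 10.72, 11.50 and 10.57 on labelled deficient arrays (2.88 ± 0.33, adjusted p = 4.16e-05). Pmaip1 (Noxa) rose as well (1.48 ± 0.24), with Bmf at 2.05, while Bid fell (-0.74 ± 0.15) and Bad did not pass. The first 3 of these pro-death genes were 2.79-fold to 7.35-fold higher in the cells labelled as carrying added Bcl2. Of 6 measured protective members, Mcl1 (1.26 ± 0.19, adjusted p = 0.000342) and Bcl2l2 (0.83 ± 0.27, adjusted p = 0.0297) rose and the other 4, Bcl2l1 among them, did not pass. Bcl2l2 no longer passed when any single array of these groups was left out. Bok, a relative of the pore formers, was below background on all 3 Bcl2-rescued arrays, at 4.77, 4.79 and 5.22, against 9.41, 9.02 and 9.07 on labelled deficient arrays (at least 11-fold lower). Bak1 did not pass. Among caspases and their regulators 5 of 14 rose and 2 fell, not far from the 39.5% of all genes that passed. Casp4 (1.52 ± 0.23) and Casp1 (0.90 ± 0.14), which serve inflammatory death, were among those higher. So were the apoptosome genes Apaf1 (0.78 ± 0.19) and Casp9 (0.81 ± 0.29). Casp9 did not pass with slide as a block (limma adjusted p = 0.0547) or when any single array of these groups was left out. Cytochrome c (Cycs, -1.15 ± 0.14) was lower.

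Genes of growth metabolism were lower. Among sterol and fatty acid synthesis genes 15 of 26 fell and 3 rose, against 18.2% of all genes lower and 21.3% higher, with a median of -1.10. Sqle, an early enzyme of the sterol branch, had 10.08, 10.01 and 9.88 on Bcl2-rescued arrays and 12.30, 12.41 and 12.52 on labelled deficient arrays (-2.42 ± 0.20, adjusted p = 3.47e-06). Cyp51 (-2.20 ± 0.23) and Nsdhl (-2.21 ± 0.30), which act after it, fell likewise, and so did the fatty acid desaturases Fads2 (-2.81 ± 0.32) and Scd2 (-2.34 ± 0.32). Insig1, which restrains the pathway and is itself its target, fell to 7.10, 6.87 and 7.10 on Bcl2-rescued arrays against 8.78, 9.18 and 8.92 on labelled deficient arrays. Its relative Insig2 rose by its brightest probe (1.21 ± 0.16) and fell by another (-1.70 ± 0.18), so its direction is unsettled. A CCAAT match stood before 76.2% of 21 genes of this list, against 34.5% of all promoters, and the sterol regulatory element (TCACCCCAC or TCACCCCAT, both strands) before 1 of the 21 (4.76%), against 0.67% of all promoters.

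Myc and the nucleolar genes fell. Myc, a driver of growth and ribosome making, had 6.31, 6.10 and 6.35 on Bcl2-rescued arrays and 8.85, 8.13 and 8.35 on labelled deficient arrays (-2.19 ± 0.45, adjusted p = 0.00238). Of 13 measured nucleolar genes 11 fell and none rose, among them Nop58 (-2.27 ± 0.22) and Ncl (-1.63 ± 0.23). The MYC antagonists Mxd4 (1.95 ± 0.21) and Mxd1 (1.61 ± 0.28) rose, together with Mycl (2.03 ± 0.32). Glycolytic enzymes fell in 9 of 13 cases and none rose. Ldha, which makes lactate, had 12.04, 12.36 and 12.37 on Bcl2-rescued arrays and 14.57, 14.59 and 14.89 on labelled deficient arrays (-2.42 ± 0.18, adjusted p = 1.88e-06), and Pgk1 gave -2.84 ± 0.30. Respiratory chain genes fell in 8 of 16 cases with a median of -0.71 (-0.775 within slide 1 and -0.545 within slide 2). Without control replicate 3, 13 of the 16 fell, where 2488 of all 9687 genes did. Cytosolic ribosomal protein genes fell in 3 of 13 cases, near the 18.2% of all genes. Lysosome and autophagy genes went the other way, with 9 of 22 higher and none lower, against 21.3% of all genes higher and 18.2% lower. The cargo receptor Sqstm1 (1.60 ± 0.23) and Gabarapl1 (1.5 ± 0.27) were among those higher. The list's median was 0.468, with 0.377 within slide 1 and 0.474 within slide 2.

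B lineage genes changed in part, with 14 of 46 higher, 3 lower and 29 not passing (median 0.51), against 21.3% of all genes higher. The list's median was 0.435 within slide 1 and 0.356 within slide 2. Without control replicate 3, 24 of the 46 were higher, where 2922 of all 9687 genes were. Rag1, which cuts DNA at immunoglobulin gene segments, had 11.06, 11.46 and 11 on Bcl2-rescued arrays and 8.31, 8.34 and 8.40 on labelled deficient arrays (2.82 ± 0.37, 7.07-fold higher, adjusted p = 0.000117). Its partner Rag2 did not pass. Bcl6, a repressor induced in quiescent pre-B cells, had 11.36, 11.35 and 11.21 on Bcl2-rescued arrays and 8.09, 8.08 and 8.77 on labelled deficient arrays (2.99 ± 0.42, adjusted p = 0.000192). Foxo1 (1.41 ± 0.18) and Irf4 (1.54 ± 0.19), which are known to promote light chain gene rearrangement, rose too, and Id3, an inhibitor of E proteins, fell (-0.77 ± 0.19). Ebf1, Tcf3, Ikzf1 and Spi1, core factors of the lineage, did not pass, and the surrogate light chain gene Igll1 gave -0.08 ± 0.14 (adjusted p = 0.691). Among surface genes Il2ra, which marks pre-B cells (2.63 ± 0.23), Cd69 (2.01 ± 0.21) and Fcmr (1.97 ± 0.38) rose, and Ly86 fell (-1.75 ± 0.33). The IL-7 receptor gene Il7r had 12.50, 12.67 and 12.16 on Bcl2-rescued arrays and 10.69, 10.69 and 10.68 on labelled deficient arrays (1.76 ± 0.17). Of the 14 measured genes of that pathway 7 rose and 1 fell, with the survival kinase Pim2 at 3.50 ± 0.20 and the feedback inhibitor Socs3 at 2.19 ± 0.22.

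Signalling and immune response genes rose in several groups. Beside each count here, 21.3% of all genes were higher and 18.2% lower. In the NF-kB list 13 of 20 rose and 1 fell, with a median of 0.95. The subunit Relb had 9.37, 9.28 and 9.53 on Bcl2-rescued arrays and 7.52, 8.25 and 7.63 on labelled deficient arrays (1.59 ± 0.26), the lymphotoxin subunit Ltb gave 2.68 ± 0.30, and the feedback inhibitors Tnfaip3 and Nfkbie gave 1.70 ± 0.36 and 1.32 ± 0.27. Tnfrsf13c, the receptor for BAFF, was the member that fell (-1.08 ± 0.23). The chemokine genes Ccl4 (2.97 ± 0.30), Ccl3 (2.86 ± 0.64) and Ccl5 (at least 4.13-fold) rose, and Cxcl16 and Ccl7, both below background on all Bcl2-rescued arrays, fell, in all 5 of 12 higher and 2 lower. Among immediate early genes 10 of 21 rose and 3 fell, with a median of 0.313 (0.385 within slide 1 and 0.595 within slide 2). Jun had 10.33, 10.31 and 10.47 on Bcl2-rescued arrays and 7.68, 8.65 and 7.77 on labelled deficient arrays (2.34 ± 0.33), whereas its partner Fos had 5.90, 5.51 and 6.12 on Bcl2-rescued arrays and 8.44, 9.92 and 8.95 on labelled deficient arrays (-3.26 ± 0.45). Jun and Fos thus moved in opposite directions. Integrated stress genes rose in part, with Trib3 at 2.47 ± 0.27 and Ddit3 (Chop) at 1.78 ± 0.32, while Asns, a target of the same pathway, and Sdf2l1 fell, in all 7 of 15 higher and 2 lower. In the TGF-beta list 4 of 8 measured genes rose and none fell, the receptor Tgfbr2 among them (1.52 ± 0.18, with its other 2 probes not passing). Without control replicate 3, 8 of 8 rose, where 2922 of all 9687 genes did. Of the heat shock genes, 2 of 5 measured rose and 1 fell.

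Interferon response genes rose in 11 of 24 cases and fell in 1, against 21.3% of all genes higher and 18.2% lower, with a median of 0.46 (0.57 within slide 1 and 0.26 within slide 2). Gbp2, an interferon-induced GTPase, had 13.88, 14.27 and 14.19 on Bcl2-rescued arrays and 11.52, 12.12 and 11.91 on labelled deficient arrays (2.26 ± 0.20, adjusted p = 6.33e-06). Ifit3 gave 2.28 ± 0.24 by its brightest probe and 0.54 ± 0.22 by another that did not pass (adjusted p = 0.0812). The factors Stat2 (1.36 ± 0.25), Irf1 (1.21 ± 0.30) and Irf5 (1.14 ± 0.18) rose by their brightest probes. Of the further Irf1 probes, that at 1.176 passed and those at 0.347, 0.555 and 0.51 did not. Isg15, Irf7 and Usp18, members that respond strongly to type I interferon, did not pass. Antigen presentation split by class. Costimulatory genes rose in 6 of 8 cases. Cd80 had 9.20, 8.29 and 9.28 on Bcl2-rescued arrays and was below background on labelled deficient arrays (at least 8.77-fold higher), and Cd86 gave 1.10 ± 0.19. Of 10 class I pathway genes 4 rose (21.3% of all genes), Tap2 (1.58 ± 0.16) and H2-K1 (1.45 ± 0.19) among them, and the immunoproteasome subunit Psmb9 fell. Of 12 class II genes 1 was higher (H2-Oa, 0.84 ± 0.24) and none lower by the brightest probe, against 21.3% and 18.2% of all genes. H2-Oa did not pass within slide 1. H2-Ab1 gave -1.43 ± 0.57 by its brightest probe (adjusted p = 0.0652, and 0.0313 without control replicate 3), and its other 2 probes passed lower (-1.94 and -1.56). The classes were not tested against each other.

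**Figure D3:**
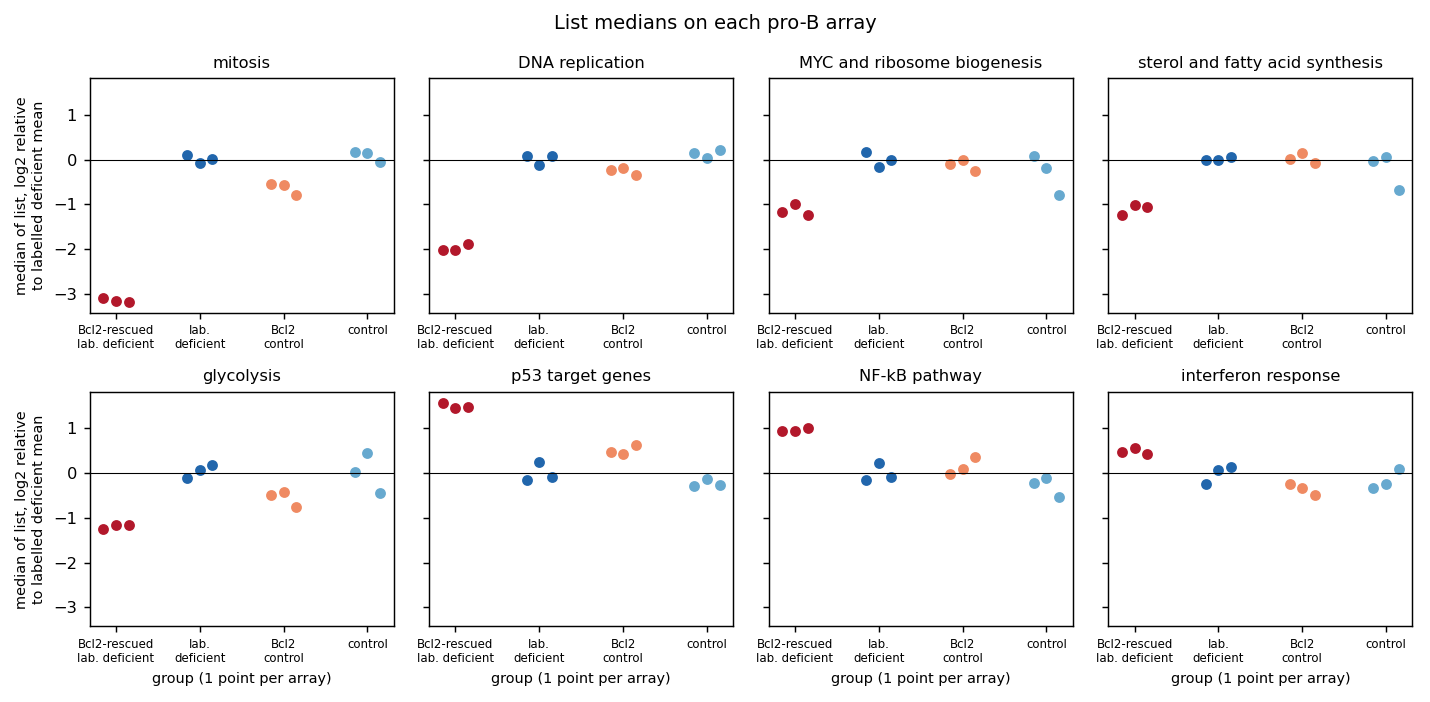
Median over the measured members of 8 gene lists on each of the 12 pro-B arrays, as log2 relative to the mean of the labelled deficient arrays (vertical axis, 1 point per array), for Bcl2-rescued labelled deficient, labelled deficient, Bcl2 control and control arrays from left to right. The 3 Bcl2-rescued arrays lie apart from the other 9 in all 8 panels.

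Markers of other cell types were measured beside these results. Neutrophil and monocyte genes fell in 9 of 13 measured cases and rose in 2, against 18.2% of all genes lower and 21.3% higher. Their summed intensity was 2696 to 4912 on Bcl2-rescued arrays and 11430 to 19980 on labelled deficient arrays. Mpo, a granule enzyme of neutrophil precursors, had 5.0, 4.72 and 5.05 on Bcl2-rescued arrays, all below background, and 10.76, 10.0 and 10.16 on labelled deficient arrays (at least 24.3-fold lower). Lyz2 had 6.49, 7.36 and 6.18 on Bcl2-rescued arrays and 11.80, 10.84 and 11.12 on labelled deficient arrays (-4.58 ± 0.45), and S100a8 and Ctsg were below background on the 3 Bcl2-rescued arrays. These granule and lysozyme genes were lower with Bcl2 in control cells too, where the list's sum was 761.6 to 1025 on Bcl2 control arrays and 11000 to 20800 on control arrays. The list's median was -2.41, but -2.96 within slide 1 and -0.99 within slide 2. Fcgr3, a low-affinity Fc receptor (3.13 ± 0.29), and Cebpb (1.58 ± 0.35) rose. The part of these markers in the other results was not tested.

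Beside the counts in the remaining marker lists, 21.3% of all genes were higher and 18.2% lower. Plasmacytoid dendritic cell markers summed to 44460 to 46900 on Bcl2-rescued arrays and 14020 to 20940 on labelled deficient arrays. Of the 7 measured, 1 passed: Ly6d, which lymphoid progenitors also express, at 15.07, 15.13 and 15.25 on Bcl2-rescued arrays and 12.70, 13.63 and 13.16 on labelled deficient arrays (1.98 ± 0.35). The conventional dendritic sum was 14530 to 16500 on Bcl2-rescued arrays and 12200 to 14040 on labelled deficient arrays. T cell markers had 2 of 4 measured lower and none higher, with sums of 205.7 to 239.9 on Bcl2-rescued arrays and 463.8 to 516.2 on labelled deficient arrays. Single markers passed in the other lists: the platelet gene Pf4 (1 of 8 erythroid and megakaryocyte markers) and the mast cell proteases Cma1 and Cpa3 (2 of 4) were lower, Nkg7 was lower and Prf1 higher (of 3 NK markers; with slide as a block neither passed, with adjusted p = 0.0614 and 0.0519), and Kit (1 of 6 stem markers) and Pecam1 (1 of 3 stromal and endothelial markers) were higher. Their part in the other results was not tested.

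**Figure D4:**
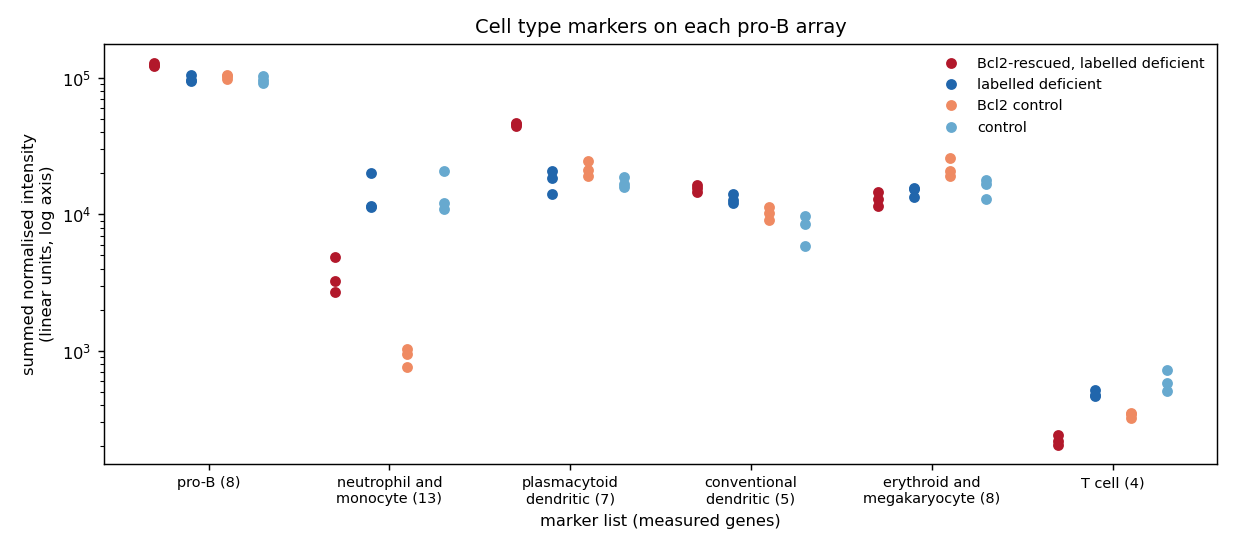
Summed normalised intensity (vertical log axis) of the measured markers of 6 cell types on each of the 12 pro-B arrays, in the order Bcl2-rescued labelled deficient, labelled deficient, Bcl2 control and control. Neutrophil and monocyte sums were at or below 4912 on the 6 arrays with Bcl2 and at or above 11000 on the 6 arrays without.

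The genes that changed most outside these lists were ranked among passing genes with groups that do not overlap. The highest were Gdpd3, a phosphodiesterase of lysophospholipids, Clic6, a chloride channel protein, Pde4c, a cyclic AMP phosphodiesterase, Smoc1 and Reln, both secreted matrix proteins, and Dmrta2, Lrrc15, Mras, Slc5a9 and Clec4f. Gdpd3 had 11.84, 11.64 and 12.16 on Bcl2-rescued arrays and 6.90, 6.72 and 6.38 on labelled deficient arrays (5.21 ± 0.45, 37.1-fold higher). Reln, known for guiding neurons, had 10.02, 10.47 and 9.33 on Bcl2-rescued arrays and 4.97, 4.95 and 6.04 on labelled deficient arrays (4.62 ± 0.43). Several of these genes, Reln among them, were above background on 1 labelled deficient array only, so their folds rest on levels near background. Sln, a regulator of the muscle calcium pump, was below background on all 3 labelled deficient arrays and had 11.70, 12.16 and 13.07 on Bcl2-rescued arrays, at least 91.6-fold higher (adjusted p = 1.93e-07). Hey1, a repressor downstream of Notch, was at least 20.4-fold higher in the same way, with 10.17, 10.03 and 10.24 on Bcl2-rescued arrays. Of the 12 lowest, Cdkn3, Pclaf, Kif11, Pbk, Sgo1, Bub1b, Cenpm and Kif15 act in replication or division, and Lyz2 is a myeloid gene. Mns1 (-4.97 ± 0.26), Sapcd2 (-4.86 ± 0.24) and the histone gene H2ac21 (-4.83 ± 0.21) complete them. Oip5, a centromere factor, and Cops8, a signalosome subunit, were below background on all Bcl2-rescued arrays (at least 16.8-fold and 14.4-fold lower).

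Fewer genes passed for the Bcl2 effect in control cells. There 788 of 9687 genes passed (8.13%), 415 higher (4.28%) and 373 lower (3.85%), and the median absolute log2 fold change was 0.51 in labelled deficient cells and 0.295 in control cells. Without the dim control replicate 3, 1103 genes were higher and 878 lower. The difference between the Bcl2 effects was tested directly. It passed for 1047 genes (10.8%), 449 higher (4.64%) and 598 lower (6.17%) in labelled deficient cells, and without control replicate 3 for 985 higher and 1033 lower. Within slide 1 each group with Bcl2 had 1 array, and within slide 2 each group without Bcl2 had 1. The difference within a slide thus rests on single arrays, and within slide 2 its only control array was the dim control replicate 3. Of the genes that passed in both states, 622 had the same direction and 20 had opposite directions.

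**Figure D5:**
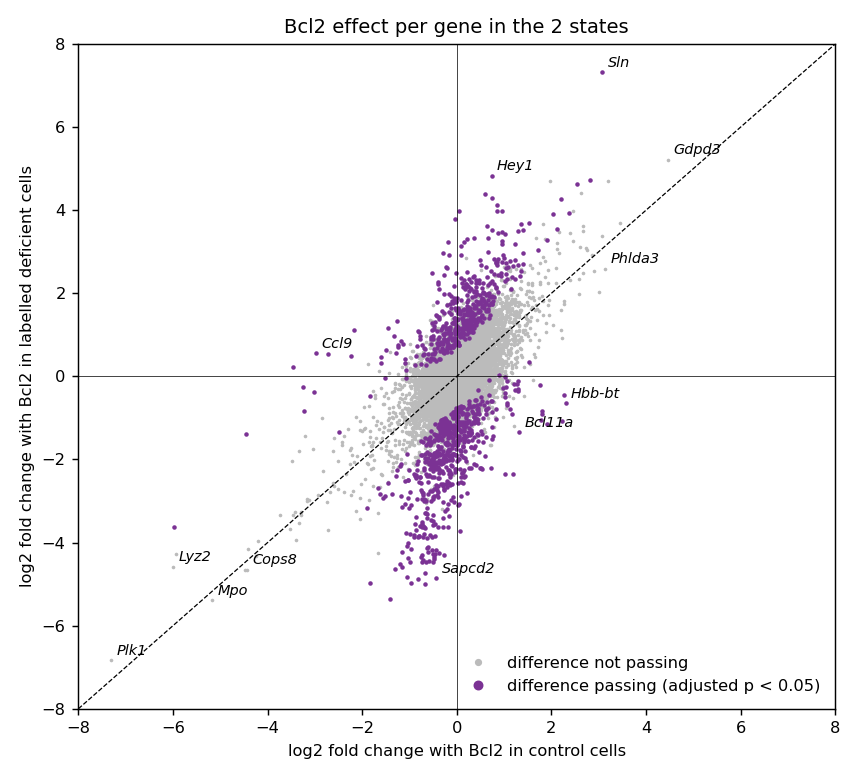
Log2 fold change with Bcl2 of each of 9687 genes in labelled deficient cells (vertical axis) against control cells (horizontal axis), with the line of equality dashed and the 1047 genes whose difference passed in purple. Plk1, Mpo and Cops8, at background on all arrays with Bcl2, lie near the line, and Sln, Hey1 and Sapcd2 lie away from it.

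Most measured cell division genes differed lower. The difference was lower for 39 of 53 mitosis genes, 29 of 35 replication genes, 14 of 17 nucleotide synthesis genes and 11 of 16 repair genes, against 6.17% of all genes. In control cells alone the mitosis median was -0.67, with 19 of 53 lower, against 3.85% of all genes. The replication median there was -0.34, with 3 of 35 lower. Without control replicate 3 these counts were 36 of 53 and 14 of 35, where 878 of all 9687 genes were lower. Sapcd2 had the lowest difference, -4.42 ± 0.34 (adjusted p = 1.53e-05), from -4.86 in labelled deficient cells and -0.44 in control cells. Pclaf (-4.32 ± 0.41), Sgo1 (-4.07 ± 0.34), Pbk (-4.05 ± 0.26) and Tk1 (-4.02 ± 0.35) followed. Sterol and fatty acid genes differed lower for 13 of 26 (median in control cells 0.21), for example Fads2 by -3.02 ± 0.45 and Scd2 by -3.36 ± 0.46, and nucleolar genes for 7 of 13. Myc fell in labelled deficient cells and gave 0.52 ± 0.45 in control cells (adjusted p = 0.523), a difference of -2.72 ± 0.63 (adjusted p = 0.0187).

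The p53 targets were compared between the states in the same way. In control cells 11 of 32 rose and none fell (median 0.77), against 4.28% of all genes higher. The difference was higher for 5 and lower for 1, against 4.64% and 6.17% of all genes. Without control replicate 3 it was higher for 11 and lower for 1, against 985 and 1033 of all 9687 genes. Zmat3 gave 3.08 ± 0.21 in labelled deficient cells and 2.74 ± 0.21 in control cells (difference 0.34 ± 0.30, adjusted p = 0.513), and Phlda3 gave 2.59 ± 0.60 in labelled deficient cells and 3.14 ± 0.60 in control cells. The difference passed on the higher side for Fas (1.43 ± 0.40), Mdm2 (1.13 ± 0.29), Ddit4l (3.13 ± 0.48), Ak1, an adenylate kinase (2.97 ± 0.27), and Cd80. Genes below background on all arrays of a group, as Ak1 and Cd80 were on the labelled deficient arrays, entered the difference at their dim values. Class II genes fell in control cells in 6 of 12 cases, against 3.85% of all genes, and the difference was higher for 2 of 12. H2-Eb1 gave -0.82 ± 0.49 in labelled deficient cells (adjusted p = 0.211) and -3.24 ± 0.49 in control cells (difference 2.41 ± 0.70, adjusted p = 0.0476). Costimulatory genes differed higher in 3 of 8 cases and B lineage genes in 10 of 46, against 4.64% of all genes. NF-kB genes did so in 3 of 20 cases and interferon response genes in 4 of 24. Without control replicate 3 the NF-kB count was 7 and the interferon count 9, where 985 of all 9687 genes differed higher. Genes that differed higher included Bcl6 (2.32 ± 0.59), Rag1 (2.03 ± 0.52) and the chemokine gene Ccl4 (3.26 ± 0.43). Of single genes, Sln (4.24 ± 0.59), Hey1 (4.09 ± 0.49) and Espn, an actin-bundling protein (3.93 ± 0.31), had the highest differences. Grb10, an adaptor of growth factor receptors, had 3.84 ± 0.44 by its brightest probe, while its other probe gave -0.18 ± 0.25 for the Bcl2 effect in labelled deficient cells and did not pass.

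Set against other references, Bcl2-rescued arrays kept apart. Against Bcl2 control arrays, which also overexpress Bcl2, 2426 genes passed (25%), 1237 higher (12.8%) and 1189 lower (12.3%), and the mitosis median was -2.41. Against control arrays without Bcl2, 4116 passed (42.5%), 2251 higher (23.2%) and 1865 lower (19.3%). These comparisons share the Bcl2-rescued arrays with the first one, so they are no independent evidence of it.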

How the data were processed

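RNA from cultured bone marrow pro-B cells was hybridised to 1-colour Illumina bead arrays. The main values are the deposited scanner intensities, not normalised by the authors per the file headers, with a detection value per probe. The detection value is a fraction in the deposited table, and detection p was taken as 1 minus this fraction. The series matrix of the authors holds a score that equalled the standardised intensity within 0.001 for all 45263 probes. The assay software, its version and any earlier background step were not given in the sources used here.

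The 12 pro-B arrays were corrected and normalised together (neqc, offset 16, quantile, log2) in limma 3.58.1 under R 4.3.3. Probes above background (detection p under 0.05) on at least 3 arrays were kept, 17719 in all, of which 2822 had no gene name. Of 45263 probes, 34874 had 1 gene symbol, 18 had several and 10371 were not in the gene table. The brightest probe stood for each of 9687 genes, and adjusted p-values for second probes are over all kept probes. Further probes of a named gene did not always pass, also where the text gives the brightest probe only. Examples not passing are probes of Lig1 (-0.313), Pgk1 (-0.683), Cycs (-0.524) and Casp4 (0.441). limma was fitted with 1 mean per group (4 groups of 3 arrays), and its moderated test was adjusted by Benjamini-Hochberg. Exact permutation of 3 against 3 arrays cannot go below p = 0.1 and was not used. A gene below background on all arrays of a group has only a bound, set against the dimmest detected signal. Precision is limited by the number of arrays. The procedure was tested on simulated data with independent arrays, few changed genes and no effect of slide or of a dim array. That test cannot show how it performs where such effects are present or where many genes change.

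Named genes are the 12 highest and 12 lowest passing genes with groups that do not overlap, the 6 largest bounds, up to 4 passing members per list role by smallest p, the 5 highest and lowest differences, and Bcl11a, Bcl11b and Bcl2. Outside this rule, Cdk1, Igll1, H2-Ab1, H2-Eb1, Phlda3, Cebpb, Bmf, Bad, Bak1, Bcl2l1, Ckap2, Ddb2, Rag2, Ebf1, Tcf3, Ikzf1, Spi1, Isg15, Irf7, Usp18, Asns, Sdf2l1, Psmb9 and Cxcl16 were chosen after their values were seen. The members of the comparison and all 34 lists were chosen with earlier results of these data known. Promoters were matched by symbol, for 7891 of 9687 genes.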

Additional observations from a re-analysis of the deposited data

Results flagged for a closer look

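The Bcl2 effect differed between labelled deficient and control cells for 1047 genes by the interaction term of the limma fit. Bcl11a was one of them, with a difference of -2.66: Bcl2 went with a lower level in labelled deficient cells (-1.35) and a higher level in control cells (1.31). The 5 genes highest by this difference were Sln (4.24), Hey1 (4.09), Espn (3.93), Grb10 (3.84) and Lrrc15 (3.78), and the 5 lowest were Sapcd2 (-4.42), Pclaf (-4.32), Sgo1 (-4.07), Pbk (-4.05) and Tk1 (-4.02), all in log2. Groups of 3 arrays are too small to judge a single outlying sample gene by gene. Over all genes, array weights set control replicate 3 apart, at 0.0639 against 0.728 to 2.1 on the other arrays. It also stood alone on the second principal component, at 79.1.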

How the results depend on the processing

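The Bcl2 effect in labelled deficient cells (3826 genes) moved by over 1.5 times in 3 settings: to 955 genes (505 higher, 450 lower) with no normalization between arrays, to 1822 (1233 higher, 589 lower; 67.7% higher against 54%) with the series matrix, and to 6216 (3241 higher, 2975 lower) over every detected probe. Leaving out single arrays gave 2996 to 5410 genes (1603 to 2922 higher), the most without control replicate 3. The difference of the Bcl2 effects (1047 genes) depended more on the setting. It passed for 116 genes (27 higher, 89 lower) within slide 1, 3412 (1718 higher, 1694 lower) within slide 2, 2373 (1168 higher, 1205 lower) with array weights and 125 (26 higher, 99 lower) with no normalization. With the series matrix limma called 0 genes (0 higher, 0 lower), and 1064 had an unadjusted p under 0.05. Single arrays left out gave 656 to 2018 genes (271 to 985 higher, 382 to 1033 lower), the lowest without Bcl2 control replicate 2 and the highest without control replicate 3. A group left with 1 array is assumed to vary like the others. Within slide 2 the 1 control array was the dim control replicate 3, so the difference there rests on it. The cause of these shifts was not tested.

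The labels number replicates alike across groups, but same-numbered arrays deviated with r = 0.043, -0.126 and 0.104, so the numbers were not taken as pairs. A replicate block gave 4015 genes (1066 for the difference) and 5068 with only the 6 arrays. Among named genes the block made Bcl2 (adjusted p = 0.0204), H2-Ab1 (adjusted p = 0.00417) and H2-Eb1 pass as lower and lost Rel and Scap. The difference could not be computed from those 6 arrays. With control arrays without Bcl2 in place of the labelled deficient arrays, Bcl11a turned to 0.52 (adjusted p = 0.0532), Tgfb3 to -1.80 (adjusted p = 0.000102) and the heat shock median to -0.02. Insig2 turned to -0.25 with the mean of its probes (adjusted p = 0.218). With no filter on dim probes the conventional dendritic median was -0.12 and the T cell median 0.039. Of 232 named genes 228 passed, and 127 of these kept side and sign in all 23 alternatives. The most were lost with no normalization (90), the series matrix (47) and slide 1 (30).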

Other observations

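Above background on all 6 arrays without Bcl2 and on none of the 6 with it were 21 genes, Plk1, Mpo, S100a8, Cops8, Pnp2 and Rpe among them, and 33 showed the reverse, such as Sln, Rcan2 and Dnali1. A further 85 genes were above background on the 3 Bcl2-rescued labelled deficient arrays and on none of the other 9, and 29 on the other 9 but on none of those 3, Oip5, Bok, Cdc25c and Ccne1 among them. These examples were chosen after their values were seen.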
